A study of Danio rerio with 8 samples.

Results

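The lysosome genes described here are 49 of the 21234 genes in a zebrafish heart count table. They were chosen by symbol, as the genes whose names start with those of the proton pump and its accessory proteins (atp6v, atp6ap), the cathepsins and legumain (cts, lgmn), membrane proteins (lamp, cd63, laptm, npc1) and proteins of lipid breakdown and cholesterol export (psap, gba, npc2). The set holds 9 genes of the V1 sector of the pump, 7 of the V0 sector, 5 for accessory proteins, 16 proteases, 7 membrane proteins and 5 genes of lipid handling. The rule itself uses no expression value, but it was set with earlier results of these data known.

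Polyadenylated RNA was sequenced from cells of dissociated adult ventricles that the labels call cardiomyocytes, in 4 libraries with Hmga1a overexpression and 4 control libraries. Both groups carried cmlc2:dsred, a red fluorescent reporter under a promoter of heart muscle cells, and both were sampled 14 days after tamoxifen. In the overexpression fish tamoxifen induces Hmga1a, a chromatin protein with AT-hooks, and the question is how this alters a heart that was not injured. The promoter that drives Hmga1a, the construct that responds to tamoxifen, the way cells were selected, and the exact age and number of the fish behind a library are not stated in the labels. The p-values therefore set the difference between the groups against the scatter between libraries, which may be partly technical.

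The lysosome is the acidic compartment in which cells digest proteins, lipids and worn-out organelles. Its acidity comes from the vacuolar proton pump, in which the cytosolic V1 sector splits ATP and the membrane-embedded V0 sector moves protons into the lumen. The low pH activates cathepsins, proteases made as inactive precursors, and saposins help lysosomal enzymes reach membrane lipids. Heart muscle cells use lysosomes to clear damaged mitochondria and proteins, while macrophages are especially rich in lysosomal enzymes because they digest what they engulf.

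Library totals were 302157 to 572295 corrected transcript counts with overexpression and 49598 to 352807 in controls, with control 2 the smallest. Mitochondrial RNA took 28.1% to 35.1% of counts with overexpression and 44.9% to 67.7% in controls. The hmga1a transcript was at 81.0, 132, 129 and 130.1 CPM in overexpression libraries 1 to 4 and at 128, 30.2, 75.1 and 59.0 CPM in controls 1 to 4. CPM here are TMM-scaled counts relative to library size, and TMM sets most genes level between libraries. Which part of the transgene's transcript these counts cover is not known. The change in hmga1a did not pass the test (0.47 ± 0.30 SE on the log2 scale, adjusted p = 0.177, edgeR). The eGFP entry averaged 609 ± 60.7 CPM with overexpression and 129 ± 85.2 CPM in controls (SD, n = 4 each). Its change passed the test (2.60 ± 0.255 SE, adjusted p = 1.2e-09, edgeR). How eGFP relates to the Hmga1a construct was not tested. As a check of the cell type, 5 of 5 tested cardiomyocyte markers were higher with overexpression, where 30.4% of all genes tested were. The summed level of the 6 in the table was 18400 to 24300 CPM with overexpression and 6176 to 9702 CPM in controls. Other heart muscle genes did not all follow: of 17 tested contractile genes, a list that shares markers with this one, 12 rose and 3 fell, namely the titin genes ttn.2 (-2.01) and ttn.1 (-1.77) and the myosin gene myh6 (-4.00). The dsRED entry of the reporter averaged 3049 ± 761 CPM with overexpression and 585 ± 37.9 CPM in controls (SD, n = 4 each). All overexpression libraries were above all controls (2.36 ± 0.17 SE, adjusted p = 2.1e-12, edgeR). The promoter's own gene, myl7 (also called cmlc2), had 0 counts with overexpression and 1 in controls.

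Of the 49 lysosome genes, 18 had enough counts to be tested, 12 had some counts but did not pass the filter, and 19 were listed at 0 in every library. With Hmga1a overexpression, 13 of the 18 fell and 0 rose (adjusted p under 0.05 over all 2501 genes tested, edgeR's quasi-likelihood test). Of all genes tested, 29.2% fell and 30.4% rose, 59.6% in either direction. The 13 changes ran from -0.60 to -1.92 on the log2 scale. The median over the 18 tested lysosome genes was -0.91, and over all genes tested it was 0.01. The test needed 28.7 CPM in at least 4 libraries, here in CPM without TMM scaling. This level was reached by 12 of the 18 in all 8 libraries and by 16 in at least 3 libraries of each group. Of the 18, 0 reached it in the 4 controls and in 0 overexpression libraries. The gene atp6v1ab reached it in 4 controls and 3 overexpression libraries. In bulk libraries, fewer cells of a type that is rich in lysosomes and less lysosomal RNA per cell cannot be told apart.

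In 7 of the 18 genes every overexpression library lay below every control, which held for 17.7% of all genes tested. In these 7 genes control 2 rests on 2 to 19.04 counts, with 2 in atp6v1ab and in laptm4a. In 0 genes did every overexpression library lie above every control, against 25.7% of all genes tested (43.4% in either direction). Control 2, which holds 92 counts over the 49 genes, was often the exception. Against controls 1, 3 and 4 alone, every overexpression library was lower in 14 of the 18 genes, which held for 29.1% of all genes tested, and without control 2 the test called 16 of 20 tested lysosome genes lower, as it did 30.1% of all genes.

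**Figure D1:**
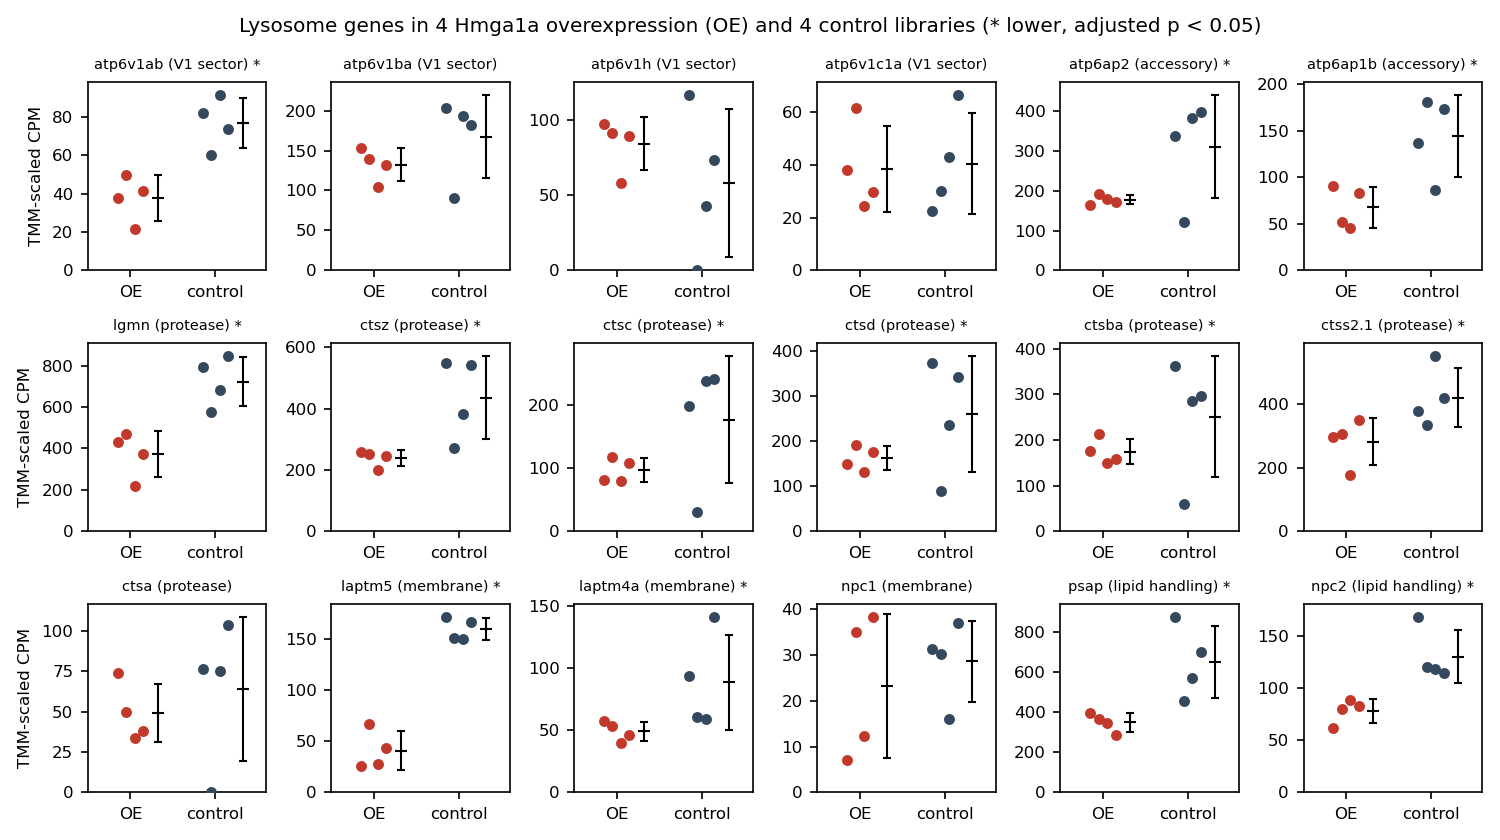
Level of the 18 tested lysosome genes in each library, in TMM-scaled CPM on linear axes from 0, with overexpression (OE) on the left and control on the right of each panel. Points are replicates 1 to 4 from left to right, black marks are the mean and SD, and an asterisk marks the 13 genes that fell. In laptm5 the groups stand far apart, while in ctsc, ctsd and ctsba control 2 is the lowest of all 8 libraries.

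In the proton pump, 1 of 4 tested V1 genes fell, where 29.2% of all genes tested did. The other 3 did not pass the test, and the median over the 4 was -0.28 on the log2 scale. The gene that fell was atp6v1ab, for the catalytic A subunit, which binds and splits ATP. It was at 38.0, 50.0, 21.4 and 41.4 CPM in overexpression libraries 1 to 4, against 82.4, 60.4, 91.3 and 73.8 CPM in controls 1 to 4. Each overexpression library was below each control (log2 fold change -1.04 ± 0.33 SE, adjusted p = 0.00804, edgeR). The value of control 2, the lowest control, rests on 2 counts. The levels of atp6v1ba, for the B subunit that pairs with A in the catalytic ring, were 153, 139, 104 and 132 CPM with overexpression, against 203, 90.5, 194 and 181 CPM in controls. Controls 1, 3 and 4 were above all overexpression libraries and control 2 below them, and the change of -0.47 (95% interval -0.94 to -0.01) had an adjusted p of 0.0732 in edgeR. It passed without control 2 (-0.49, adjusted p = 0.0462) and with scaling without mitochondrial entries (-0.53, 0.0467).

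The other 2 V1 genes showed no change that could be told from the spread between libraries. The gene of the H subunit, which couples V1 to V0, was at 97.8, 91.9, 58.3 and 89.8 CPM (atp6v1h) with overexpression, against 117, 0, 42.9 and 73.8 CPM in controls. The groups overlapped, and control 2 with its 0 counts had a detection limit of 90.5 CPM (3 counts, counting error only). The log2 fold change of atp6v1h was 0.16 (95% interval -0.52 to 0.83), the only positive one among the tested lysosome genes, with an adjusted p of 0.698 in edgeR. It was -0.05 without control 3. With libraries scaled on contractile genes, so that these and not most genes are set level, it was -0.97 (adjusted p = 0.0345). The gene of the C subunit, which holds the stator of the pump together, atp6v1c1a, averaged 38.5 ± 16.4 CPM with overexpression and 40.5 ± 19.1 CPM in controls (SD, n = 4 each). Its log2 fold change was -0.09 (95% interval -0.93 to 0.75), between -0.50 without control 1 and 0.33 without control 4.

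Both tested genes for accessory proteins of the pump fell, where 29.2% of all genes tested did. The gene atp6ap2 encodes a membrane protein, also known as the prorenin receptor, that is needed to assemble the pump. Its levels were 165, 192, 179 and 172 CPM with overexpression, against 339, 121, 384 and 399 CPM in controls. Controls 1, 3 and 4 stood well above the overexpression libraries and control 2 below them (log2 fold change -0.97 ± 0.21 SE, adjusted p = 0.000201, edgeR). The gene atp6ap1b, for the Ac45 protein that guides the pump, was at 90.6, 51.6, 46.0 and 83.1 CPM with overexpression, against 137, 181, 85.9 and 174 CPM in controls. The ranges met where overexpression library 1 was just above control 3 (-1.01 ± 0.30 SE, adjusted p = 0.00409, edgeR).

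None of the 7 V0 genes could be compared. Of these, 6 were listed at 0 in every library (atp6v0a1b, atp6v0a2a, atp6v0a2b, atp6v0ca, atp6v0cb and atp6v0d1), and atp6v0b had 1 count in overexpression library 2 and 1 in control 1. The genes atp6v1aa, atp6v1e1a, atp6v1f and atp6v1g1 of V1, and the accessory genes atp6ap1la and atp6ap1lb, were also listed at 0, while atp6v1c2 and atp6ap1a had 1 count each, in control 1. A value of 0 allows up to 3 counts, which is 4.96 to 9.19 CPM in overexpression libraries and 8.49 to 90.5 CPM in controls. The pump needs subunits of both sectors to work, and some of the genes at 0 encode subunits that every cell uses, so a listed 0 is not read here as a gene that is off.

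Of the 16 protease genes, 7 were tested, 6 fell and 0 rose, where 29.2% of all genes tested fell and 30.4% rose. The median log2 fold change over the 7 was -0.87. Legumain, an asparaginyl endopeptidase that also cleaves cathepsin precursors, was at 429, 471, 219 and 374 CPM (lgmn) with overexpression, against 791, 574, 680.1 and 844 CPM in controls. Every overexpression library was below every control (-0.99 ± 0.19 SE, adjusted p = 4.3e-05, edgeR). Cathepsin Z, a carboxypeptidase, was at 260, 252, 201 and 247 CPM (ctsz) with overexpression, against 548, 272, 384 and 543 CPM in controls. The groups did not overlap here either, although control 2 was close to overexpression library 1 (-0.97 ± 0.19 SE, adjusted p = 7.2e-05, edgeR).

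Cathepsin C, a dipeptidyl peptidase that in mammals activates the granule proteases of leukocytes, was at 81.0, 117, 79.9 and 108 CPM (ctsc) with overexpression, against 197, 30.2, 237 and 241 CPM in controls. Cathepsin D, the main aspartic protease of the lysosome, was at 151, 192, 132 and 178 CPM (ctsd) with overexpression, against 374, 90.5, 237 and 342 CPM in controls. In both genes controls 1, 3 and 4 lay above every overexpression library and control 2 below every one, a single value that for ctsc rests on 1 count and for ctsd on 3. The log2 fold change was -1.07 ± 0.26 SE for ctsc (adjusted p = 0.000752, edgeR) and -0.87 ± 0.23 SE for ctsd (adjusted p = 0.00164, edgeR).

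Cathepsin B, a cysteine protease, showed the same order of libraries, with a mean of 175 ± 27.4 CPM (ctsba) with overexpression and 251 ± 132 CPM in controls (SD, n = 4 each; -0.74 ± 0.23 SE, adjusted p = 0.00622, edgeR). The cathepsin S gene ctss2.1 had the smallest change that passed, with means of 281 ± 73.8 CPM with overexpression and 419 ± 92.9 CPM in controls (SD, n = 4 each; -0.60 ± 0.20 SE, adjusted p = 0.012, edgeR). It did not pass without overexpression library 3 (-0.38, adjusted p = 0.108) or without control 3 (-0.45, adjusted p = 0.0822). The gene of cathepsin A, a carboxypeptidase that also shields other lysosomal enzymes from breakdown, was at 73.8, 50.0, 33.7 and 38.1 CPM (ctsa) with overexpression, against 76.7, 0, 75.1 and 103 CPM in controls. It did not pass (-0.69, 95% interval -1.41 to 0.02, adjusted p = 0.088, edgeR) and did pass without control 2 (-0.75, adjusted p = 0.0439).

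The other proteases had few counts. Cathepsin H, an aminopeptidase, had 10.01, 12.02, 7.005 and 9.009 counts (ctsh) with overexpression, against 20.05, 1, 20.05 and 18.04 counts in controls. In CPM this was 23.8, 19.9, 21.4 and 14.9 with overexpression, against 56.8, 30.2, 107 and 66.4 in controls. The overexpression libraries were below all controls, of which control 2 rests on 1 count, and ctsh passed where the filter asked for 10 counts in each of 4 libraries (-1.83, adjusted p = 0.000173, edgeR). Cathepsin K, known for breaking down collagen in bone, was at 6.13 to 11.9 CPM with overexpression and 0 to 42.9 CPM in controls (ctsk). Cathepsin F, also a cysteine protease, was at 6.13 to 21.5 CPM with overexpression and 25.8 to 48.3 CPM in controls (ctsf), without overlap, on 1 to 13.02 counts per library. The genes ctsbb, ctsla, ctsll and ctss2.2 were listed at 0 in all 8 libraries, and ctsl.1 and ctss1 had 1 or 2 counts per group. In the gene order of the reference assembly GRCz12tu, ctsk, ctss2.1 and ctss2.2 are next to each other, the only adjacent genes among the 47 lysosome symbols that it lists. How the counting assigned reads of such related copies is not known, so the split between ctss2.1 and ctss2.2, ctsba and ctsbb, or atp6v1ab and atp6v1aa is uncertain.

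Of the 7 membrane protein genes, 3 were tested and 2 fell, where 29.2% of all genes tested did. The largest fall of all tested lysosome genes was that of laptm5, which in mammals is a lysosomal membrane protein of blood cells. Its levels were 26.1, 66.7, 27.6 and 43.1 CPM with overexpression, against 171, 151, 150.5 and 166 CPM in controls. Every overexpression library was far below every control (-1.92 ± 0.30 SE, adjusted p = 2.7e-06, edgeR), of which control 2 rests on 5 counts. Its relative laptm4a, which is broadly expressed in mammals, was at 57.1, 53.3, 39.9 and 46.4 CPM with overexpression, against 93.8, 60.4, 59.0 and 140.4 CPM in controls. The groups came close without overlapping (-0.96 ± 0.31 SE, adjusted p = 0.00921, edgeR), and the call was lost without control 4 (-0.67, adjusted p = 0.122). The value of control 2 for laptm4a rests on 2 counts.

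The cholesterol exporter gene npc1 was at 7.12, 34.9, 12.2 and 38.1 CPM with overexpression, against 31.2, 30.2, 16.1 and 36.8 CPM in controls. The groups overlapped fully (-0.23, 95% interval -1.24 to 0.78, adjusted p = 0.705, edgeR), and the sign turned without overexpression library 1 (0.10). The gene of the main lysosomal membrane glycoprotein, lamp1b, was at 11.9, 38.3, 33.7 and 21.5 CPM with overexpression, against 25.5, 0, 26.8 and 44.2 CPM in controls. The groups overlapped, and with 0 to 23.06 counts per library the gene did not enter the test. With the filter of 10 counts in each of 4 libraries lamp1b was at -0.20 (adjusted p = 0.729, edgeR), and the authors' deposited table gives it a log2 fold change of 0.24 (adjusted p = 0.895). The genes lamp1a and laptm4b were listed at 0, and cd63, a tetraspanin of lysosomes and secreted vesicles, had 1 count in each of controls 1 and 4 and 0 elsewhere.

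Both tested genes of lipid handling fell, where 29.2% of all genes tested did. The gene psap, for the precursor of the saposins, was at 395, 365, 345 and 287 CPM with overexpression, against 870, 453, 570 and 696 CPM in controls. Every overexpression library was below every control (-0.98 ± 0.18 SE, adjusted p = 2.4e-05, edgeR). The gene npc2, for the soluble protein that hands cholesterol to Npc1, was at 61.9, 80.2, 89.1 and 83.1 CPM with overexpression, against 168, 121, 118 and 114 CPM in controls. The groups did not overlap (-0.77 ± 0.27 SE, adjusted p = 0.0131, edgeR), and the call was lost without control 1 (-0.64, adjusted p = 0.0894) and without overexpression library 1 (-0.63, adjusted p = 0.0622). The value of control 2 for npc2 rests on 4 counts. The glucosylceramidase gene gba was at 2.37, 21.6, 0 and 18.2 CPM with overexpression, against 25.5, 30.2, 16.1 and 33.1 CPM in controls, on 0 to 13.02 counts per library. The groups overlapped in overexpression libraries 2 and 4. Of its relatives, gba2 had 1 count in overexpression library 4, and gba3 was listed at 0.

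**Figure D2:**
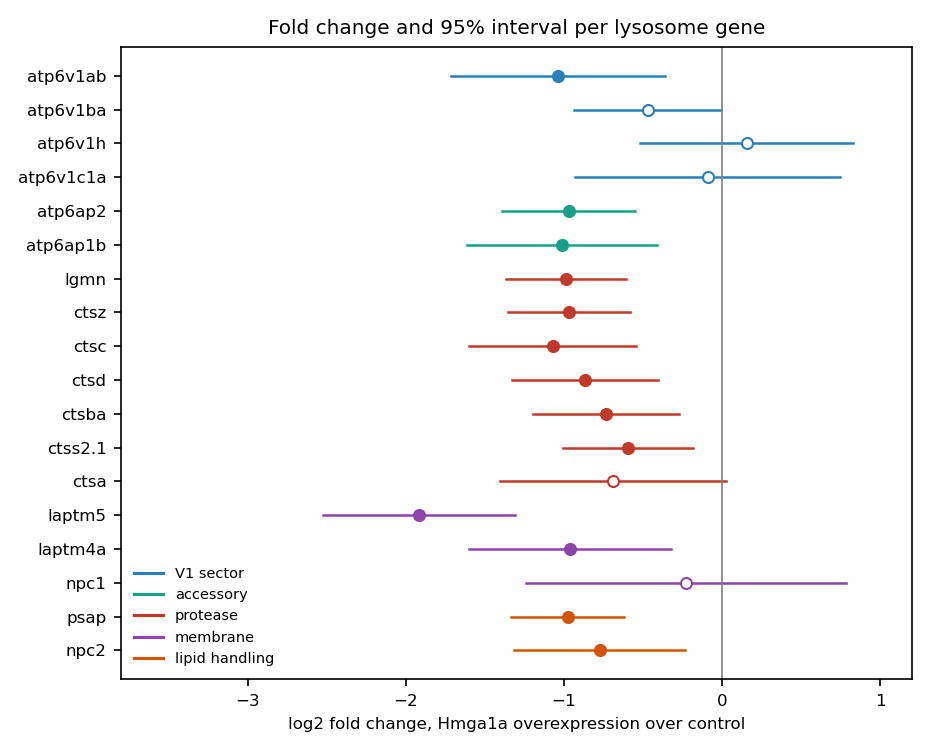
Log2 fold change, overexpression over control, of the 18 tested lysosome genes with the 95% interval of the edgeR fit, coloured by role. Filled points fell (adjusted p under 0.05) and open points did not pass. Most filled points lie near -1, laptm5 stands at -1.92, and the intervals of 3 V1 genes, ctsa and npc1 reach or come close to 0.

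Summed over all genes of a role, V1 genes were at 209 to 343 CPM with overexpression and 181 to 427 CPM in controls. The groups overlapped only through control 2, whose 181 CPM rest on 6 V1 counts. Genes of accessory proteins summed to 225 to 256 CPM with overexpression and 302 to 573 CPM in controls, without overlap. Membrane protein genes summed to 102 to 193 CPM with overexpression and 241.4 to 391.6 CPM in controls, and lipid handling genes to 390 to 467 CPM with overexpression and 604 to 1063 CPM in controls, both without overlap. The protease sums, 1029 to 1640 CPM with overexpression and 1450 to 2902 CPM in controls, overlapped through control 2.

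The balance between the roles was also read within each library, where no scaling between libraries enters. There were 4.66, 4.78, 4.93 and 5.11 protease counts per V1 count in overexpression libraries 1 to 4, against 6.69, 8.01, 7.13 and 7.35 in controls 1 to 4. The ratio thus stayed below that of all controls in all 4 overexpression libraries, with means of 4.87 ± 0.19 and 7.30 ± 0.55 (SD, n = 4 each). The value of control 2, the highest, rests on 6 V1 counts. Of all lysosome counts, atp6v1h took 3.66%, 3.18%, 2.90% and 3.48% with overexpression and 2.26%, 0%, 0.966% and 1.44% in controls. The gene atp6v1ba took 4.82% to 5.74% with overexpression and 3.26% to 4.36% in controls. In the other direction laptm5 took 0.979% to 2.31% with overexpression and 3.26% to 5.43% in controls. For the other 15 tested genes the shares of the groups overlapped. These ratios were chosen after the values of the genes were seen and are given as a description, with no test.

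Most tested markers of other cell types were also lower with overexpression, where 29.2% of all genes tested were. Of 12 macrophage markers, 11 were in the table and 7 were tested, and 7 of 7 fell, their median being -1.93 on the log2 scale. The summed level of the 11 was 1549 to 2169 CPM with overexpression and 3650 to 6964 CPM in controls, with cybb and mfap4 at 0. Most of that sum came from cd74a and cd74b. With overexpression these averaged 1274 and 413 CPM, within a mean sum of 1943 CPM. In controls they averaged 4035 and 1078 CPM, within a mean sum of 5926 CPM. Among leukocyte markers other than laptm5, which is itself one of the lysosome genes, wasb was tested and fell (-3.44), coro1a was at 0, and the summed level was 0 to 30.9 CPM with overexpression and 90.5 to 155 CPM in controls. Of the endothelial markers 3 of 3 tested fell, with cdh5 at 0 and summed levels of 45.1 to 103 CPM with overexpression and 145 to 239 CPM in controls. Among the fibroblast markers the single tested one, col1a1b, fell (-2.48), with summed levels of 33.3 to 65.0 CPM with overexpression and 183 to 514 CPM in controls. The neutrophil marker mmp9 did not pass (-0.66), mmp13a was at 0, and the summed neutrophil level was 21.4 to 139 CPM with overexpression and 34.02 to 172 CPM in controls, while the 3 red cell markers in the table were at 0.

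The summed level of the 49 lysosome genes was 2668, 2888, 2010 and 2583 CPM in overexpression libraries 1 to 4, against 5155, 2779, 4442 and 5106 CPM in controls 1 to 4. The groups overlapped only through control 2, and the mean with overexpression was 0.581 times that of controls, while for the macrophage markers it was 0.328 times. Within each library the lysosome sum was 1.29, 1.46, 1.30 and 1.19 times the macrophage marker sum with overexpression, against 0.773, 0.761, 0.692 and 0.733 times in controls. Because cd74a and cd74b make up most of the marker sum, these ratios mainly compare the lysosome genes with them. With library sizes and scaling taken without mitochondrial entries, 14 of 18 lysosome genes were called lower, against 30.7% of all genes. The part of the other cell types and of the higher cardiomyocyte markers in the fall of the lysosome genes was not tested.

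**Figure D3:**
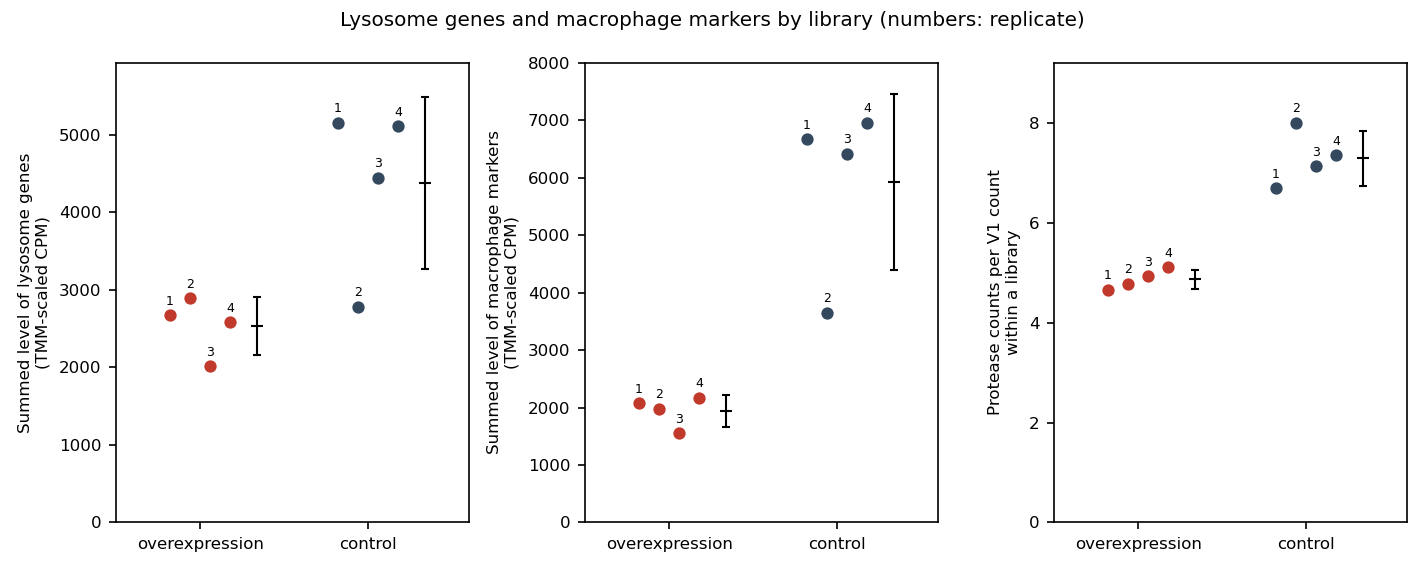
Summed TMM-scaled CPM of the 49 lysosome genes (left) and of the 11 macrophage markers in the table (middle), and protease counts per V1 count (right), by library, all on linear axes from 0. Numbers give the replicate and black marks the mean and SD of 4 libraries. Control 2 is low in both sums, and in the ratio all overexpression libraries lie at or below 5.11 and all controls at or above 6.69.

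Other genes of the lysosome and of autophagy were taken from lists of textbook members outside the 49. The shares to set beside their counts are 29.2% lower and 30.4% higher over all genes tested. Of 52 listed enzymes of the lysosome, 36 were in the table and 7 were tested, and 7 of 7 fell, with a median of -1.50. They include hyal2b, a hyaluronidase (-2.98 ± 0.41 SE), rnaset2, an acid ribonuclease (-2.11 ± 0.35 SE), gusb, beta-glucuronidase (-1.70 ± 0.32 SE), and asah1b, acid ceramidase (-0.95 ± 0.29 SE). With library totals alone 3 of the 7 passed, and asah1b was among those that did not (-0.56, adjusted p = 0.144). Of 54 listed genes of other membrane, sorting and signalling proteins, 9 were tested. Their median was -0.44, with 4 lower and 0 higher. The 4 were the calcium channel genes mcoln1a (-2.39 ± 0.39 SE) and mcoln3a (-1.98 ± 0.33 SE), arl8ba, which moves lysosomes along microtubules (-1.29 ± 0.30 SE), and lamtor3, of the complex that ties mTORC1 to the lysosome (-1.33 ± 0.42 SE). Of these, lamtor3 did not pass with library totals alone (-0.97, adjusted p = 0.0666). Adjusted p was 0.0439 or less for all 11 genes of these lists that fell (edgeR).

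The autophagy list moved in both directions. Of 34 listed genes 6 were tested. Their median was 0.20, with 3 higher and 2 lower, beside 30.4% higher and 29.2% lower of all genes tested. The gene tfec, of the TFEB family of transcription factors, fell to 76.7 ± 12.3 CPM with overexpression, against 261 ± 54.2 CPM in controls (SD, n = 4 each; -1.84 ± 0.22 SE, adjusted p = 4.5e-08, edgeR), and the autophagy receptor gene optn fell as well (-1.18 ± 0.29 SE, adjusted p = 0.000957, edgeR). The mitophagy receptor gene bnip3 rose to 115 ± 41.5 CPM with overexpression, against 41.4 ± 16.9 CPM in controls (SD, n = 4 each; 1.37 ± 0.34 SE, adjusted p = 0.00106, edgeR). The autophagosome genes gabarapl2 (0.86 ± 0.25 SE, adjusted p = 0.0039, edgeR) and gabarapb (0.51 ± 0.19 SE, adjusted p = 0.0217, edgeR) rose too. With libraries scaled on contractile genes bnip3 was at 0.28 and no longer passed, and gabarapl2 (-0.27, adjusted p = 0.438, edgeR) turned to the other sign without passing. Under that scaling gabarapb was called lower (-0.59, adjusted p = 0.0279, edgeR), as were 58.7% of all genes.

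The authors' deposited table, an edgeR comparison over 7998 genes, holds 23 of the 49 lysosome genes. Of these 23, the authors' deposited table gives 19 a negative and 4 a positive log2 fold change, with 8 lower and 0 higher at an adjusted p under 0.05. Over its 7998 genes, the authors' deposited table has 12.2% lower and 14.2% higher by that rule. The authors' deposited table marks laptm5, ctsh, ctsk and ctsf as down (log2 fold changes of -1.46, -1.68, -1.59 and -1.14) and marks 0 of the 23 as up. These 4 are 17.4% of the 23, near the 15% of all its genes that the authors' deposited table marks as down, while it marks 16% as up. For ctsf the adjusted p in the authors' deposited table is 0.111. Its counts equal those of overexpression libraries 2, 3 and 4 and controls 1, 3 and 4, so both tests share libraries. Refitted on those 6 libraries with the test used here, 16 of 20 tested lysosome genes were lower and 0 higher, with 30.3% of all genes lower. Lysosome is a term of the lowered genes in the authors' deposited table, with 22 genes, 3 of them among the 49, at 2.67-fold enrichment (adjusted p = 0.00384). The authors' deposited table also lists lysosomal membrane, with 10 genes at 2.09-fold (adjusted p = 0.667). Both enrichments in the authors' deposited table are against a population of 18868 genes, not the 7998 genes compared. Of the 259 terms of the raised genes in the authors' deposited table, 0 name the lysosome.

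The scaling of the libraries changed how many lysosome genes passed. With library totals alone the median of all genes was 0.38 and that of the 18 lysosome genes -0.52, and psap, lgmn, ctsz and laptm5 were the 4 still called lower. These are 22.2% of the 18, near the 19.2% of all genes called lower under that scaling. Scaling on contractile genes moved all genes to a median of -1.10 and the lysosome genes to -2.01, and 18 of 18 were called lower, beside 58.7% of all genes. A change of scaling moves every gene by about the same amount, so the distance between these medians says nothing about how stable the fall is.

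**Figure D4:**
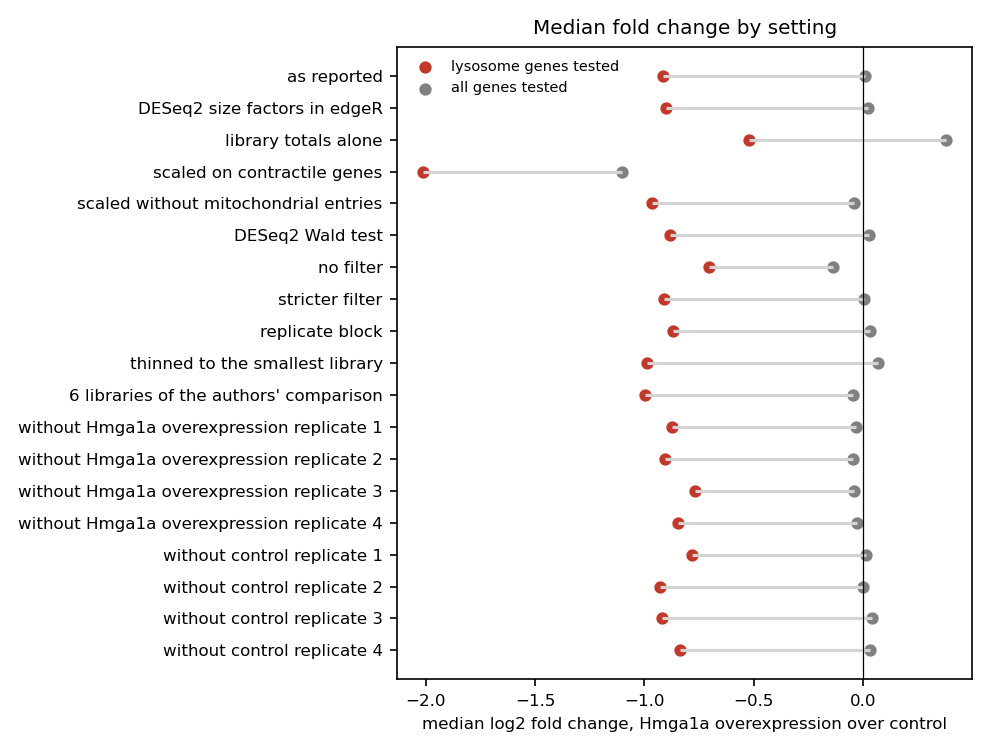
Median log2 fold change, overexpression over control, of the lysosome genes tested (red) and of all genes tested (grey) as reported and under each of 18 other settings. The red point lies left of the grey one in every setting shown, by 0.569 with no filter, where 30 lysosome genes were fitted, and by 1.06 with libraries thinned to the smallest, where 7 were. Between scalings this distance is nearly fixed by construction.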

How the data were processed

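The authors deposited estimated counts per gene for 8 libraries, with no scaling between libraries. These are identifier counts corrected for repeated use of an identifier: with 4096 identifiers, undoing the correction gives a whole number for 100% of non-zero values (tolerance 0.01). The submitters' processing notes name the build danRer11 and the tool edgeR. The sources used here give no aligner, counter, annotation or strand setting. Beside the counts, the authors deposited an edgeR comparison with log2 fold changes, p-values and adjusted p-values, and gene ontology tables with numbers of genes, fold enrichment (a ratio) and adjusted p-values, per the file headers.

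Spike-ins (67 entries) were left out, and counts were rounded and fitted in R 4.3.3 with edgeR 4.0.16. The steps were filterByExpr (minimum count 10), TMM and the robust quasi-likelihood test without covariates, adjusted by Benjamini-Hochberg over 2501 genes with a threshold of 0.05. The script was tested on simulated data with a fixed dispersion of 0.1, not one estimated from these libraries. There it found 92.6% of 4-fold changes and 18.2% of 2-fold changes. A gene that did not pass is therefore not shown to be unchanged. The SE was taken from the coefficient and its F statistic. Alternatives were DESeq2 1.42.0, other scalings and filters, thinning, a replicate block and leaving out libraries. The lysosome genes used at most 7.23% of the identifiers. The genes, the lists and the alternatives were chosen with earlier results of these data known. Values by library are given for up to 4 genes per role with the smallest p past the threshold in each direction and for the most abundant gene where it did not pass. Further genes shown by library were chosen after their values were seen. From each other list at most 4 genes past the threshold are named, except the autophagy list, where all that passed are. Intervals and floors cover counting error or the spread between libraries only.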

Additional observations from a re-analysis of the deposited data

Results flagged for a closer look

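Among the 36 groups of 4 libraries formed by the 18 tested lysosome genes and the 2 conditions, 1 held a library far from the other 3. In npc2, control 1 stood at 168 CPM, while the other controls lay between 114 and 121 CPM. Chance gives such a gap in about 1 of 20 groups. Without control 1 the fall of npc2 was -0.64 and did not pass (adjusted p = 0.0894, edgeR).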

How the results depend on the processing

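Of 18 other settings, 0 called a lysosome gene higher. The number lower, 13 as reported, was 4 with library totals alone, 7 of 30 with no filter and 0 of 7 with libraries thinned to the smallest, where fewer genes could be tested. Of all genes, 479 of 2501, 1030 of 13443 and 51 of 469 were lower in these settings. Without single libraries 12 to 16 lysosome genes were lower, highest without control 2. Other lysosome pathway genes (3 higher, 13 lower) had 8 lower with library totals alone, 0 higher on contractile scaling, and 0 higher and 0 lower after thinning. Without single libraries 2 to 4 were higher and 11 to 14 lower. Over all genes, 760 were higher and 730 lower as reported, 964 and 479 with library totals alone, 115 and 1467 on contractile scaling, 19 and 51 after thinning, and 629 to 861 and 671 to 852 without single libraries. The median of all genes shifted by 0.37 with library totals alone and by -1.11 on contractile scaling. The sign of 3 genes that did not pass turned. For npc1 it was 0.106 with library totals alone, 0.089 in the authors' 6 libraries, and -0.507 to 0.098 without single libraries. The H subunit gene atp6v1h was at -0.966 on contractile scaling and -0.046 to 0.574 without single libraries. For atp6v1c1a it was 0.296 with library totals alone, 0.131 with no filter and -0.497 to 0.327 without single libraries. The cause of these changes was not tested. With the replicate block, 696 genes were higher and 652 lower, and 13 lysosome genes were lower. Same-numbered libraries correlated at -0.06 to 0.01, and 0 of 4 overexpression libraries correlated best with their own number. The best correlations were 0.04 to 0.07, too close to 0 to show whether the numbers pair libraries. Low depth limits control 2 most, where 0 counts allow 90.5 CPM.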
